A study of Danio rerio with 16 samples.

Results

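The loss of gfi1b was followed in whole zebrafish embryos in which gfi1aa was intact. These are 8 of the 16 libraries of the study, chosen by the genotype in the sample labels: the 4 libraries of gfi1b-/- and of the double mutant gfi1b/1ab DM, in which gfi1b is lost, were set against the 4 libraries of WT and of gfi1ab-/-, in which it is intact, over all 19903 genes with enough counts. The study sequenced RNA from embryos labelled as 15 h post fertilization (hpf), with 2 libraries for each of 8 genotypes that combine mutations of gfi1aa, gfi1b and gfi1ab. The background was the AB strain. The gfi1b allele smu11 is an insertion and the gfi1ab allele smu12 is a deletion, both made with CRISPR/Cas9 and predicted to disrupt the zinc fingers. Each gene is represented by a single mutant line. The single mutants came from crosses of heterozygotes of their own line, the cross behind gfi1b/1ab DM is not given in the sources used here, and the WT embryos are siblings of a cross that is likewise not given. The other 8 libraries carry a gfi1aa mutation, with gfi1b intact (gfi1aa-/- and gfi1aa/1ab DM) or lost (gfi1aa/1b DM and gfi1 TM, in which all 3 genes are mutated), and were used only to ask whether a change in the 8 libraries was also present there. By the paper, gfi1aa/1b DM and gfi1aa/1ab DM came from gfi1aa heterozygotes already mutant for gfi1b or for gfi1ab. The gfi1 TM embryos came from gfi1ab heterozygotes already mutant for gfi1aa and gfi1b. In these 8 libraries gfi1b status and parental stock therefore cannot be told apart.

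Gfi1b is a zinc finger repressor. In mammals it binds DNA through its C-terminal zinc fingers and recruits the histone demethylase Lsd1 and the CoREST proteins through its N-terminal SNAG domain, and mice without it lack normal red cells and platelets. Zebrafish have a pair of genes related to mammalian Gfi1 (gfi1aa and gfi1ab) and a single gfi1b. At the stage sampled, red cell precursors and the first endothelial cells arise side by side in the lateral plate mesoderm, and they make up a small part of the embryo. A gene read in whole embryos therefore sums over every tissue, and fewer cells of a type cannot be told apart from less RNA per cell.

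The 8 libraries held 17596409 to 22253984 counts on genes (median 19936574.5) and 23607 to 24204 genes with at least 1 count. A library was compared with another by the standard deviation (SD) of the log2 differences between genes. Used were tested genes with a mean over the 8 libraries of at least 1 CPM (counts scaled to a library of fixed size). Replicates differed by 0.255 to 0.333 on this measure. WT stood apart from every other genotype, at 0.647 to 0.666 from gfi1ab-/-, 0.599 to 0.621 from gfi1b-/- and 0.638 to 0.660 from gfi1b/1ab DM, although gfi1ab-/- shares its intact gfi1b. The closest genotypes were gfi1ab-/- and gfi1b/1ab DM, at 0.335 to 0.368, close to the distance of replicates. Whether WT stands apart through clutch or genotype cannot be told apart with this design, so results that rest on WT are also given without it. The fit without WT set the mean of gfi1b-/- and gfi1b/1ab DM against gfi1ab-/- alone. In it gfi1b-/- differs from gfi1ab-/- in gfi1ab as well as in gfi1b. A call kept or lost without WT therefore does not isolate the loss of gfi1b.

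The targeted gene did not pass the test between mutant and intact embryos, so its counts do not check the genotype. Scaled to a library of fixed size (CPM, the usual scale of read counts), gfi1b was at 3.45 and 2.57 in WT, 5.31 and 5.39 in gfi1ab-/-, 3.98 and 3.41 in gfi1b-/- and 5.75 and 4.48 in gfi1b/1ab DM. The groups overlapped, and the log2 fold change with gfi1b lost was 0.11 (95% confidence interval (CI) -0.27 to 0.50, adjusted p = 0.795). Neither partner moved past the test: gfi1aa had a log2 fold change of -0.07 (CI -0.31 to 0.17) and gfi1ab of 0.16 (CI -0.27 to 0.59).

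To ask which genes depended on gfi1b, the mean of gfi1b-/- and gfi1b/1ab DM was compared with the mean of WT and gfi1ab-/-. With gfi1b lost, 876 genes changed (4.40% of the 19903 tested), 468 of them higher (2.35%) and 408 lower (2.05%), at an adjusted p under 0.05 in edgeR's quasi-likelihood test with the Benjamini-Hochberg method, and 3781 genes had an unadjusted p under 0.05 (19.0%). A log2 fold change of at least 1, which is a change of 2-fold or more, was reached by 311 of the 876 genes (1.56% of all tested). For 378 of the 876 genes the 4 libraries with gfi1b lost and the 4 with it intact did not overlap, as they did not for 1226 of all tested genes (6.16%). Leaving out 1 library lowered the count to between 364 (without gfi1b-/- replicate 2) and 687 (without gfi1ab-/- replicate 1), and by more than 1.5 times for each of the 7 libraries other than that gfi1ab-/- replicate. A fit that dropped the means of the genotypes and knew only the side of a library called 19 genes, with 1967 at an unadjusted p under 0.05. Without both WT libraries 313 genes were called. Of the 876 genes, 172 were called in the same direction without WT, and 121 had the opposite sign.

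The count hides a large difference between the backgrounds. In gfi1b-/- against WT, 1882 genes changed (9.46% of those tested), 921 higher (4.63%) and 961 lower (4.83%). In gfi1b/1ab DM against gfi1ab-/-, 76 genes changed (0.382%), 49 higher (0.246%) and 27 lower (0.136%), and 1500 had an unadjusted p under 0.05 (7.54%). Left-out libraries gave 683 to 1024 genes in the first comparison and 7 to 22 in the second, so that each of the 8 libraries moved its comparison by over 1.5 times. The typical standard error was similar, with a median over all genes of 0.169 in both, while the median size of the log2 fold change was 0.193 against 0.126. A test of the difference between the backgrounds (the gfi1b by gfi1ab interaction) called 574 genes (2.88%), 266 of them (1.34%) with a more positive and 308 (1.55%) with a more negative change in the gfi1ab-/- background, and 238 to 384 genes when a library was left out.

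The 2 backgrounds share no library, so their directions can be compared. Over all tested genes the log2 fold changes had the same sign in both for 53.5%. Among the 1882 genes of gfi1b-/- against WT it was 55.3%, and among the 76 genes of gfi1b/1ab DM against gfi1ab-/- 34 genes or 44.7%. Changed in both were 32 genes, 19 in the same direction and 13 in opposite directions. The 13 include jak2a, a kinase of cytokine receptor signalling, with a log2 fold change of -0.39 (SE 0.09) against WT and 0.48 (SE 0.10) against gfi1ab-/-, and gbp3, of the interferon-induced GTPases, at -2.07 (SE 0.22) and 1.28 (SE 0.24); jak2a lies on chromosome 21. These genes were named after their values were seen. The plot of the 1926 genes called in either background shows most points along the axis of gfi1b-/- against WT.

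**Figure D1:**
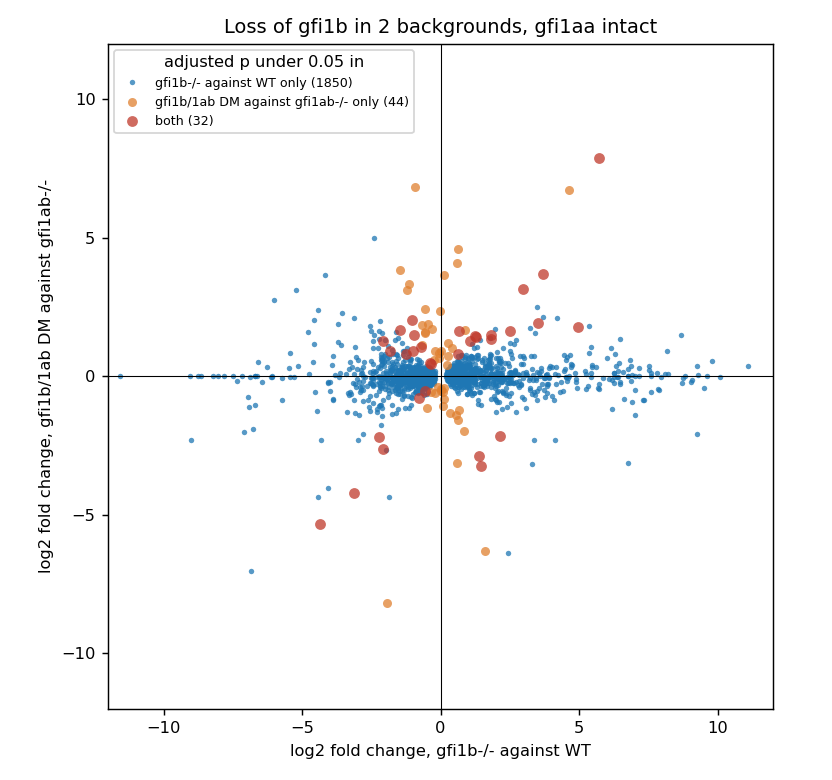
Log2 fold change in gfi1b-/- against WT (x axis) and in gfi1b/1ab DM against gfi1ab-/- (y axis) of the genes called in either comparison; each point is a gene, and colours show where it was called. The 1850 genes called only against WT spread along the x axis, and the 32 genes called in both lie in the same-direction quadrants (19) or in the opposite ones (13).

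The largest changes are given for genes without a clone name whose groups did not overlap. A gene with a clone name, CR293531.4, rose by 6.81 on the log2 scale. Among the genes so chosen the largest increase was that of col28a1a, a collagen gene. It was at 0 and 0.0476 CPM in WT, 0 and 0.135 in gfi1ab-/-, 13.9 and 11.5 in gfi1b-/- and 0.302 and 0.149 in gfi1b/1ab DM. Of these 8 libraries only the 2 of gfi1b-/- were high, and the 4 gfi1b/1ab DM and gfi1ab-/- libraries were all near 0. Among the gfi1aa mutants gfi1aa-/-, with gfi1b intact, was high too, at 7.62 and 8.01 CPM. There gfi1aa/1ab DM was at 0 and 0 CPM, and the libraries with gfi1b lost at 1.52 to 4.17. Of the 8 libraries no intact one had more than 3 counts. With gfi1aa intact, the mean with gfi1b lost was therefore at least 42.9-fold higher (against 3 counts per library). The rise was at least 86.8-fold in gfi1b-/- against WT. The change differed between the backgrounds (interaction log2 of -7.19, adjusted p = 0.0495). By contrast itga2.3, which codes for an alpha integrin, the class of receptors that bind collagen and other matrix, rose in both. It was at 0.0999 and 0.0476 CPM in WT, 0.35 and 0.0899 in gfi1ab-/-, 1.2 and 0.878 in gfi1b-/- and 2.82 and 2.64 in gfi1b/1ab DM, so that the groups did not overlap. Its log2 fold change was 3.71 (SE 0.66) against WT and 3.69 (SE 0.49) against gfi1ab-/-, from no more than 6 counts in an intact library. The third matrix gene, fndc1, named for its fibronectin type III domains, had a log2 fold change of 1.66 (CI 0.93 to 2.39, adjusted p = 0.0126), lost its call without WT replicate 2 and was lowest in WT, at 0.3 and 0.191 CPM against 1.41 to 1.85 with gfi1b lost.

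Among the 8 libraries, a citrate transporter gene, slc13a5b, showed the pattern of a gene that was low in WT only. Among the gfi1aa mutants it was low in gfi1aa/1ab DM too, at 0.181 and 0.112 CPM. There it was at 4.86 and 6.58 CPM in gfi1aa-/- and at 3.88 to 9.84 with gfi1b lost. It was at 0.05 and 0.191 CPM in WT, 5.72 and 3.82 in gfi1ab-/-, 8.72 and 9.51 in gfi1b-/- and 11.2 and 8.06 in gfi1b/1ab DM. The groups did not overlap, but the gap of WT to gfi1ab-/- was wider than the gap of gfi1ab-/- to the mutants. The log2 fold change was 6.15 (SE 0.57) against WT and 1.03 (SE 0.32, adjusted p = 0.309) against gfi1ab-/-, with an interaction of -5.12 (adjusted p = 0.00146), and without the WT libraries the call was lost (adjusted p = 0.123). WT was also lowest for otofa, the zebrafish gene for otoferlin, a calcium sensor of vesicle release in sensory hair cells. It was at 2.2 and 2.1 CPM in WT, in between at 5.83 and 9.49 in gfi1ab-/-, and at 11.8 to 16.4 with gfi1b lost. The interaction was -2.12 (adjusted p = 0.014), and the adjusted p without WT was 0.122. Among the gfi1aa mutants otofa was at 1.21 to 3.87 CPM with gfi1b intact and 6.50 to 14.45 with it lost. The kainate receptor subunit gene grik1b (0.286 to 1.40 CPM with gfi1b intact and 1.76 to 3.38 with it lost) likewise lost its call without WT, at an adjusted p of 0.141. Among the gfi1aa mutants grik1b was at 0.280 to 1.33 CPM with gfi1b intact and 2.33 to 3.51 with it lost.

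A rise in both backgrounds was found for galk2, which codes for a kinase of N-acetylgalactosamine. Its level was 0.999 and 2.43 CPM in WT, 3.27 and 2.97 in gfi1ab-/-, 9.97 and 9.75 in gfi1b-/- and 8.93 and 10.5 in gfi1b/1ab DM. All 4 libraries with gfi1b lost were above all 4 others. The log2 fold change was 2.08 (CI 1.68 to 2.48, adjusted p = 2.6e-05), 2.51 (SE 0.28) against WT and 1.65 (SE 0.26) against gfi1ab-/-. The call of the mean over both held without each library in turn and without WT (adjusted p = 0.000311). The RNA-binding protein gene ewsr1b, related to the gene rearranged in human Ewing sarcoma, was at 2.35 to 7.59 CPM with gfi1b intact and 9.80 to 22.6 with it lost, and rose in both backgrounds, by log2 fold changes of 1.81 (SE 0.30) and 1.5 (SE 0.27). A BTB zinc finger gene, zbtb12.1, was at 0.381 to 1.03 CPM with gfi1b intact and 2.49 to 4.52 with it lost, a log2 fold change of 2.49 (CI 1.88 to 3.10) that kept its call without WT (adjusted p = 0.00808). In gfi1b/1ab DM against gfi1ab-/- zbtb12.1 did not pass the test (adjusted p = 0.0849).

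NCKAP1L, whose mammalian counterpart is a subunit of the WAVE actin-regulating complex in blood cells, was also among the largest increases. It was at 2.1 and 0.381 CPM in WT, 0.467 and 0.18 in gfi1ab-/-, 4.36 and 4.78 in gfi1b-/- and 4.84 and 4.58 in gfi1b/1ab DM. The mutant libraries were within a narrow range, above all intact libraries, of which WT replicate 1 was the highest. The log2 fold change was 2.90 (CI 1.79 to 4.01, adjusted p = 0.00554), and neither background alone passed the test, at adjusted p of 0.0824 and 0.0573. Among the gfi1aa mutants NCKAP1L was at 0.121 to 2.69 CPM with gfi1b intact and 0.0485 to 1.94 with it lost. The log2 fold change there was 0.56 (SE 0.66, adjusted p = 0.657). The difference between the 2 settings did not pass the test (adjusted p = 0.194). The last of the 12 largest increases, hrc (a calcium-binding protein gene of muscle) and znf1104 (a zinc finger gene), rested on at most 31 and 27 counts per library and lost the call without 2 and 4 of the 8 libraries. Without WT neither they nor fndc1 passed the test (adjusted p of 0.330, 0.457 and 0.514).

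**Figure D2:**
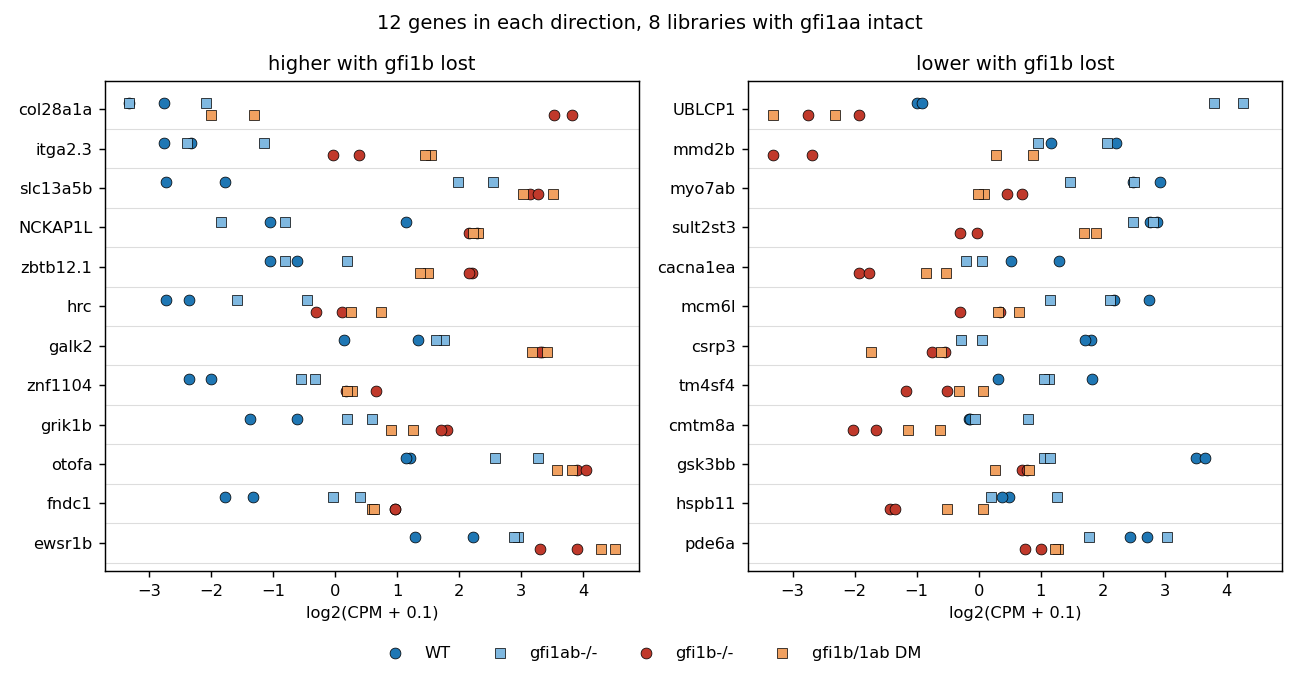
Level of the 12 genes with the largest increase (left) and decrease (right), clone names left out, in each of the 8 libraries with gfi1aa intact, as log2 of CPM plus 0.1 (x axis). Blue points have gfi1b intact and red or orange points have it lost. Circles are WT and gfi1b-/-, and squares are gfi1ab-/- and gfi1b/1ab DM. For galk2 and myo7ab the points with gfi1b lost lie apart from the intact ones among circles and among squares. By contrast col28a1a is high only in gfi1b-/- and gsk3bb only in WT.

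Among the decreases, UBLCP1, named for a ubiquitin-like phosphatase of the proteasome, was at 0.4 and 0.429 CPM in WT, 13.7 and 19.1 in gfi1ab-/-, 0.164 and 0.0488 in gfi1b-/- and 0.101 and 0 in gfi1b/1ab DM. Of these 8 libraries only the 2 of gfi1ab-/- were high, and among the gfi1aa mutants gfi1aa-/- was high too, at 8.49 and 13.6 CPM, with the other 6 libraries at 0.278 or less. With at most 3 counts per library with gfi1b lost, the mean was at least 55.1-fold lower than with it intact, and in gfi1b/1ab DM at least 109.0-fold lower than in gfi1ab-/-. In gfi1b-/- against WT the test was not passed (adjusted p = 0.221), and the interaction had an adjusted p of 0.074.

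A decrease common to both backgrounds was found for myo7ab, which codes for an unconventional myosin. It lies on chromosome 21, as gfi1b does, and 76 tested genes after it. It was at 7.44 and 5.52 CPM in WT, 2.68 and 5.57 in gfi1ab-/-, 1.53 and 1.27 in gfi1b-/- and 0.958 and 0.895 in gfi1b/1ab DM. Every library with gfi1b lost was below every other. The log2 fold change was -2.19 (CI -2.65 to -1.73, adjusted p = 4.99e-05), with -2.21 (SE 0.29) against WT and -2.17 (SE 0.32) against gfi1ab-/-, and the call held without each library and without WT (adjusted p = 0.00251). The lysine methyltransferase gene smyd2b fell in both as well, from 28.5 to 39.3 CPM to between 17.6 and 25.7, a log2 fold change of -0.78 (CI -0.97 to -0.58).

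A kinase gene of the GSK3 beta type, gsk3bb, which in general restrains Wnt signalling, was the counterpart of slc13a5b among the 8 libraries. It was at 11.2 and 12.5 CPM in WT, and between 1.09 and 2.11 in the other 6 libraries. The WT libraries alone were high, and the libraries with gfi1b lost lay only just below those of gfi1ab-/- (1.98 and 2.11). The log2 fold change was -2.91 (SE 0.26) against WT and -0.57 (SE 0.29) against gfi1ab-/-, the interaction was 2.34 (adjusted p = 0.00453), and without WT the adjusted p was 0.469. A gene of the muscle LIM protein, csrp3, was also high in WT (3.4 and 3.19 CPM) against 0.199 to 0.934 elsewhere, and lost its call without WT (adjusted p = 0.49).

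Others fell with levels in gfi1ab-/- nearer to WT. The sulfotransferase gene sult2st3 was at 5.53 to 7.25 CPM with gfi1b intact, 0.708 and 0.878 in gfi1b-/- and 3.13 and 3.63 in gfi1b/1ab DM. A relative of the replicative helicase, mcm6l, was at 4.45 and 6.62 CPM in WT, 4.26 and 2.11 in gfi1ab-/- and 0.708 to 1.46 with gfi1b lost. Both kept their call without WT (adjusted p of 0.0464 and 0.0190) and without each library in turn. In gfi1b/1ab DM against gfi1ab-/- neither passed the test (adjusted p of 0.711 and 0.206). The rod photoreceptor phosphodiesterase gene pde6a (3.33 to 8.09 against 1.58 to 2.32 CPM), the tetraspan gene tm4sf4 (1.14 to 3.45 against 0.341 to 0.945 CPM) and cmtm8a (0.799 to 1.63 against 0.146 to 0.547 CPM) lost theirs without 4, 1 and 4 of the 8 libraries. Least firm were mmd2b, the calcium channel gene cacna1ea and hspb11, which lost the call without 6, 7 and 7 of the 8 libraries. For mmd2b the 2 gfi1b-/- libraries were at 0.0545 and 0 CPM and gfi1b/1ab DM at 1.11 and 1.74, against 1.84 to 4.55 with gfi1b intact. Without WT these last genes and pde6a were not called (adjusted p of 0.119 for mmd2b, 0.273 for cacna1ea, 0.0736 for hspb11 and 0.0720 for pde6a).

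The position of the called genes was then examined, since gfi1b lies on chromosome 21. Of the tested genes, 16331 (82.1%) could be matched to the RefSeq gene table of the GRCz12tu assembly, and 671 of these were called. Chromosome 21 held 628 tested genes, of which 66 were called (10.5%), 40 higher and 26 lower. The share was above that of each of the 24 other chromosomes, which ranged from 1.98% on chromosome 5 to 7.42% on chromosome 15. In gfi1b/1ab DM against gfi1ab-/- the share was 2.39% on chromosome 21 and at most 0.791% elsewhere, and 15 of the 53 matched genes called lay there (28.3%). In gfi1b-/- against WT it was 10.5%, within the range of the others (4.93% to 15.8%). Without the WT libraries 4.47% of chromosome 21 genes and 1.38% of the genes elsewhere were called. No test was made of these shares, because neighbouring genes are not independent.

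**Figure D3:**
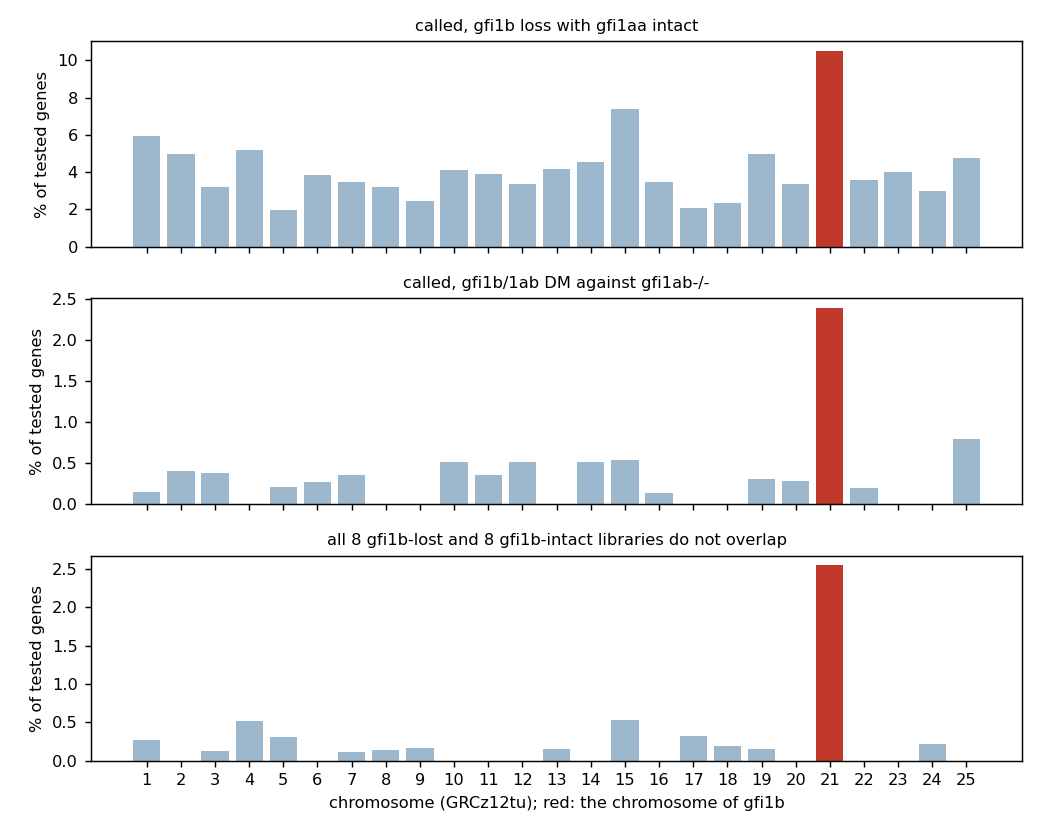
Percentage of the tested genes of each chromosome that were called for gfi1b loss with gfi1aa intact (top), called in gfi1b/1ab DM against gfi1ab-/- (middle) or separated in all 16 libraries (bottom); bars start at 0 and chromosome 21, which carries gfi1b, is red. Chromosome 21 stands highest in all 3 panels, at 10.5%, 2.39% and 2.55%.

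Within chromosome 21 the called genes lay mostly on the side after gfi1b in the order of the assembly. Of 209 tested genes before gfi1b 4 were called, and of 418 after it 62. Among the 25 nearest tested genes on each side 8 of 50 were called (16%), and among the nearest 100 on each side 28 of 200 (14%). Among the nearest 200 on each side it was 39 of 400 (9.75%), and farther away 27 of 227 (11.9%). Of all tested genes 4.40% were called. The share over both sides together did not fall steadily with distance. With 209 tested genes before gfi1b, nearly all genes beyond the nearest 200 lay after it, where more were called. These windows therefore cannot separate distance from side. The gene stom, which codes for the membrane protein stomatin, lay 4 tested genes after gfi1b, fell from 171 to 235 CPM to between 110 and 156, and had a log2 fold change of -0.53 (CI -0.78 to -0.29, adjusted p = 0.0159). It lost the call without 4 of the 8 libraries.

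A stricter view used the genotypes of gfi1aa mutants as well. In all 16 libraries of the study, the 8 with gfi1b lost and the 8 with it intact did not overlap for 46 genes (0.231% of those tested), 28 higher (0.141%) and 18 lower (0.0904%). Of the 37 of these with a match, 16 lay on chromosome 21 (43.2%), which is 2.55% of its tested genes against at most 0.530% on another chromosome. They were 10 higher and 6 lower, 14 of them after gfi1b, and 15 within 200 tested genes of it. The gene myo7ab, given above, is among them. This set was looked up after the values were seen and gets no test. Because the 8 libraries of the main comparison helped to choose it, what follows is description.

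**Figure D4:**
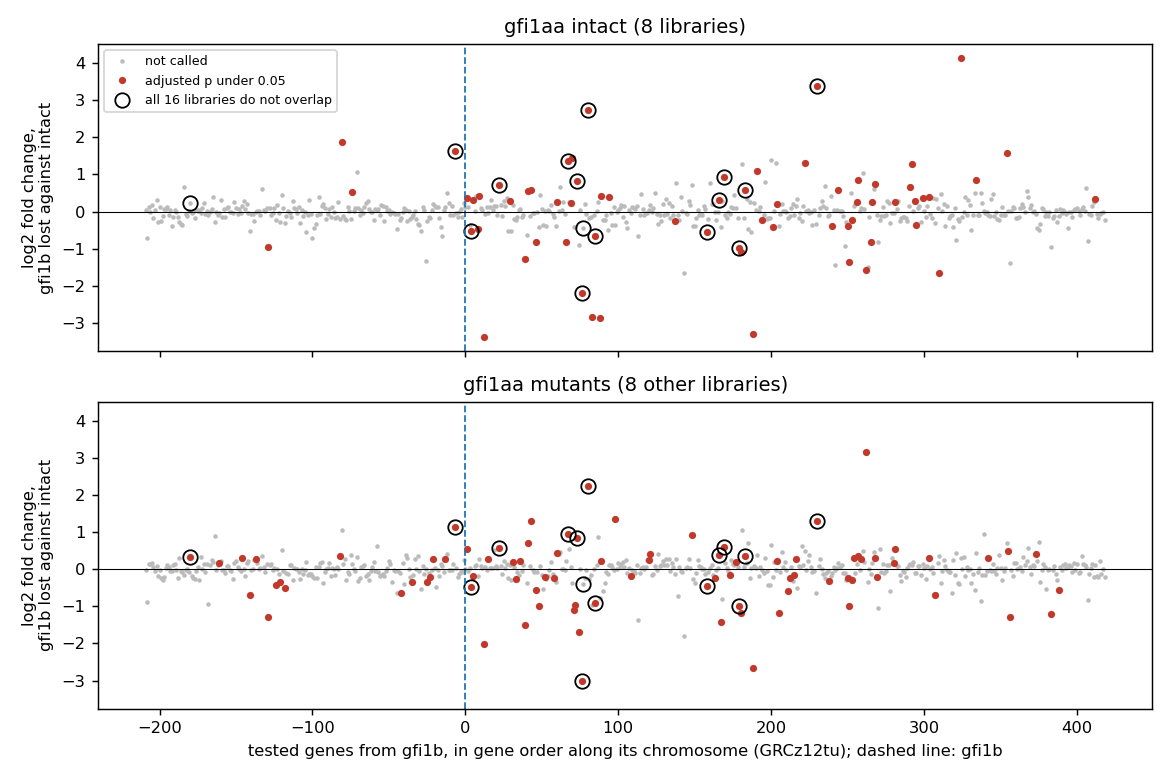
Log2 fold change with gfi1b lost (y axis) of the tested genes of chromosome 21 in their order from gfi1b (x axis, tested genes, negative before gfi1b), with gfi1aa intact (top) and in gfi1aa mutants (bottom); red points were called and rings mark the 16 genes separated in all 16 libraries. Of the ringed genes 14 lie after gfi1b, and the choice of these genes fixes that each has the same direction in both panels.

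The lowest adjusted p of these belonged to si:ch73-112l6.1, a gene known by a clone name, 80 tested genes after gfi1b. It was at 5.6 and 7.52 CPM in WT, 15.9 and 12.8 in gfi1ab-/-, 78.1 and 74.2 in gfi1b-/- and 54.2 and 54.9 in gfi1b/1ab DM. The lowest library with gfi1b lost was more than 3 times the highest with it intact. Its log2 fold change was 2.73 (CI 2.53 to 2.94, adjusted p = 5.82e-10), and 2.23 (SE 0.10) in gfi1aa mutants, with 41.2 to 57.4 CPM against 5.49 to 17.6. The other large rise was zgc:152891, 230 genes after gfi1b, at 0.45 and 0.619 CPM in WT, 5.72 and 3.96 in gfi1ab-/-, 16.1 and 17.9 in gfi1b-/- and 18.3 and 14.7 in gfi1b/1ab DM. WT was the lowest, and the log2 fold change of 4.97 (SE 0.45) against WT differed from that of 1.79 (SE 0.32) against gfi1ab-/- (interaction adjusted p = 0.0101). It also differed in gfi1aa mutants (log2 fold change 1.3, SE 0.22, interaction adjusted p = 0.00703). The carbonyl reductase gene cbr1l, 67 genes after gfi1b, was at 30.6 and 23.4 CPM in WT, 32.8 and 29.8 in gfi1ab-/-, 70.8 and 61.5 in gfi1b-/- and 82 and 83.5 in gfi1b/1ab DM. WT and gfi1ab-/- overlapped here, and the rise was of similar size in both backgrounds, with log2 fold changes of 1.29 (SE 0.13) and 1.41 (SE 0.13) and an interaction of 0.11 (adjusted p = 0.839).

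Smaller changes of this set were also found. The peroxiredoxin gene prdx5, for a mitochondrial antioxidant enzyme, fell from 103 to 122 CPM to between 74.3 and 85.8, with log2 fold changes of -0.55 (SE 0.10) against WT and -0.52 (SE 0.10) against gfi1ab-/-. A nucleoside transporter gene, slc29a2, was at 18.9 to 26.5 CPM with gfi1b intact and 9.51 to 13.2 with it lost (log2 fold change -0.99, CI -1.21 to -0.76). The gene of a cilium protein, cfap53, which acts in left-right patterning, was at 5.49 to 7.59 and 3.88 to 4.54 CPM (log2 fold change -0.66, CI -0.88 to -0.44). Among the increases, gpat3, for an enzyme of triglyceride synthesis, was at 18.1 to 32.8 CPM with gfi1b intact and 37 to 41.4 with it lost, with log2 fold changes of 0.40 (SE 0.13, adjusted p = 0.0624) against WT and 1.02 (SE 0.13, adjusted p = 0.00394) against gfi1ab-/-. The sorting protein gene pacs1a had a log2 fold change of 0.59 (CI 0.41 to 0.77), wdr73 of 0.84 (CI 0.51 to 1.17), fkbp2, for a protein-folding enzyme of the endoplasmic reticulum, of 0.32 (CI 0.18 to 0.47), and the netrin receptor gene unc5da, 7 genes before gfi1b, of 1.63 (CI 0.98 to 2.28). Members of the set that did not pass the test with gfi1aa intact were gdpd4b (adjusted p = 0.068) and zgc:163077 (adjusted p = 0.142). Without WT the calls of unc5da, wdr73, cfap53, fkbp2 and pacs1a were lost (adjusted p of 0.0736, 0.140, 0.0998, 0.0676 and 0.0601), and fkbp2 also lost its call without 4 of the 8 libraries.

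Changes on chromosome 21 also recurred in gfi1aa mutants. Of the 66 genes called there, 33 were called in the same direction in gfi1aa mutants, whose 8 libraries are others, as were 113 of the 605 matched genes called elsewhere (18.7%). In those 8 libraries 9.19% of all tested genes were called (1829), and 13.7% on chromosome 21 against 5.26% to 14.2% on the others. Whether these changes come with the chromosome that carries the mutation or from the loss of gfi1b was not tested.

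Of the 19 genes changed in the same direction in both backgrounds, 13 were matched to a chromosome, and 5 of these lay on chromosome 21. Away from it, the DNA polymerase gene polm (2 to 2.86 against 5.51 to 7.01 CPM) rose by log2 fold changes of 1.25 (SE 0.24) and 1.44 (SE 0.24). A neuronal adaptor gene, apba2a (4.67 to 6.38 against 8.27 to 8.97 CPM), rose by 0.64 (SE 0.15) and 0.81 (SE 0.15) on the log2 scale. In RIMBP2, named for a presynaptic scaffold protein and not matched to a chromosome, the groups overlapped across backgrounds although it rose within both, since it was at 21.1 and 26.9 CPM in WT and 21.8 and 21.7 in gfi1b/1ab DM. These genes were named after their values were seen. Separated in all 16 libraries but on other chromosomes were genes with large and with small changes. Large was the fall of si:ch211-57b15.1 on chromosome 1 (log2 fold change -4.83), at 0.109 CPM or less with gfi1b lost. On chromosome 15, si:dkey-24p1.6 (2.92, CI 2.08 to 3.76) and grik1b (1.85, CI 1.22 to 2.48) rose. Smaller were nfkbiab, for an inhibitor of NF-kB (log2 fold change 0.30, CI 0.15 to 0.44), and tom1, for an endosomal sorting protein (0.38, CI 0.23 to 0.54). The same holds for ctsd, for the lysosomal protease cathepsin D (-0.22, CI -0.32 to -0.12). The calls of nfkbiab and ctsd were lost without 6 and 5 of the 8 libraries, and those of tom1 and ctsd without WT (adjusted p of 0.0832 and 0.130).

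Gene lists were then read for the tissues in which Gfi1 proteins are known to act and for the rest of the embryo. Of 284 distinct genes tested in 21 lists, 6 changed (2.11%, against 4.40% of all tested genes), and 16 lists had no changed gene. In the erythroid list 0 of 25 genes changed, in edgeR's quasi-likelihood test with the lowest adjusted p at 0.154, and 5 were lower and 0 higher at an unadjusted p under 0.05. Of all 19903 tested genes, 1858 were lower and 1923 higher at that level. The median log2 fold change of the erythroid list was -0.11, beside 0.00 over all tested genes, and 7 of the 25 genes lay above 0. It was -0.20 in gfi1b-/- against WT and -0.10 in gfi1b/1ab DM against gfi1ab-/-. The summed level of the list was 345.6 to 398.3 CPM with gfi1b lost and 368.6 to 434.1 with it intact, and these ranges overlap.

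None of the erythroid genes named by the study passed the test. The erythroid transcription factor gata1a was at 14.1 and 13.2 CPM in WT, 17.4 and 14.8 in gfi1ab-/-, 13.9 and 15.3 in gfi1b-/- and 12.3 and 13 in gfi1b/1ab DM. The groups overlapped, and the log2 fold change of -0.12 had a CI of -0.33 to 0.09. The first enzyme of haem synthesis in red cells, alas2, had a CI of -0.78 to 0.13, the embryonic globin genes hbae3 and hbbe3 of -0.71 to -0.07 and -0.66 to 0.17, the membrane skeleton gene sptb of -0.79 to 0.20 and the transferrin receptor gene tfr1a of -0.36 to 0.38. For hbae3 the adjusted p was 0.173, and 0.0437 without the filter on low counts. Among these the interval was widest for the membrane skeleton gene epb41b, at 1.47 to 3.48 CPM (CI -0.78 to 0.40).

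The endothelial list gave 0 changed genes of 24, a median log2 fold change of -0.08 and a lowest adjusted p of 0.0880. At an unadjusted p under 0.05, 0 were higher and 3 lower, beside 1923 and 1858 of all 19903 tested genes. Of the 24 genes 7 lay above 0. In gfi1b-/- against WT the median was -0.22 and 1 gene was called lower, where 4.83% of all tested genes were. In gfi1b/1ab DM against gfi1ab-/- the median was 0.02. The regulator etv2, which starts the endothelial programme, was at 46.7 and 51.8 CPM in WT, 50.5 and 50.6 in gfi1ab-/-, 48 and 44.7 in gfi1b-/- and 48.1 and 47.5 in gfi1b/1ab DM, a log2 fold change of -0.09 (CI -0.20 to 0.03). The groups overlapped. The intervals were -0.26 to 0.17 for sox7, a regulator of the same lineage, -0.34 to 0.06 for the adhesion gene cdh5, -0.41 to -0.01 for the growth factor receptor flt4, -0.28 to 0.11 for clec14a and -0.15 to 0.23 for egfl7. For flt4 the adjusted p was 0.228.

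None of the 10 blood progenitor transcription factors changed (lowest adjusted p 0.178, 1 gene in each direction at an unadjusted p under 0.05), nor any of the 5 tested of 13 primitive myeloid genes. In the latter lcp1, an actin-bundling protein of white cells, had a log2 fold change of -0.72 (CI -1.18 to -0.27, adjusted p = 0.0681). The 13 genes of the gfi1 family and of the Lsd1-CoREST complex had 0 changed genes and a median of 0.01, and the gene of Lsd1 itself, kdm1a, had a log2 fold change of 0.06 (CI -0.04 to 0.15).

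**Figure D5:**
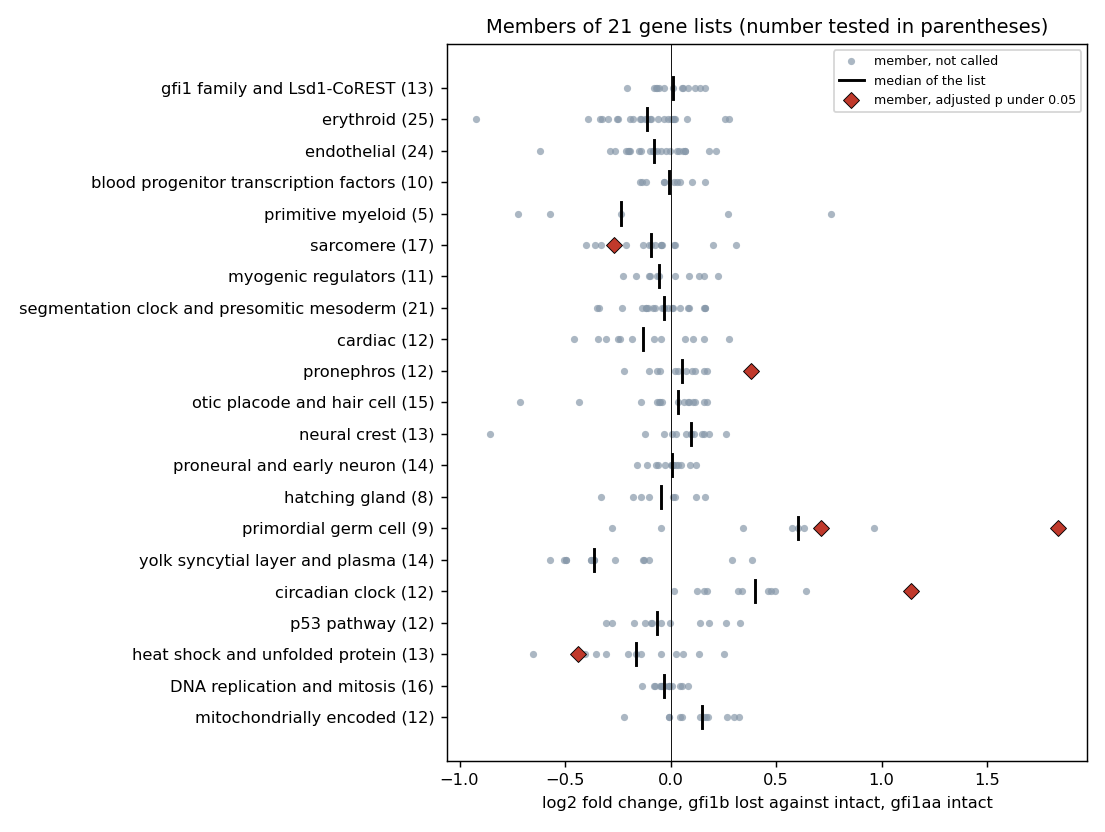
Log2 fold change with gfi1b lost (x axis) of each tested member of the 21 lists (rows) with gfi1aa intact; red diamonds were called, grey points were not, and the black bar is the median of the list. Only 5 lists hold a called gene, the erythroid and endothelial medians lie at -0.11 and -0.08, and the germ cell and circadian clock medians at 0.60 and 0.40.

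Of 9 germ cell genes 2 rose, where 2.35% of all tested genes did, and the other 7 did not pass the test. Of the 9, 7 lay above 0, with a median log2 fold change of 0.60, of 0.87 in gfi1b-/- against WT and of 0.29 in gfi1b/1ab DM against gfi1ab-/-. The germ cell helicase gene ddx4 (vasa) was at 6.95 and 9.52 CPM in WT, 14.2 and 8.77 in gfi1ab-/-, 17.5 and 16.9 in gfi1b-/- and 15.3 and 14 in gfi1b/1ab DM. The groups overlapped through gfi1ab-/- replicate 1. Its log2 fold change was 0.71 (CI 0.34 to 1.09, adjusted p = 0.032), and dazl, for an RNA-binding protein of germ cells, had 1.84 (CI 0.95 to 2.73, adjusted p = 0.0216) from at most 21 counts per library. Both calls were lost without 6 of the 8 libraries and without WT (adjusted p of 0.336 and 0.0974). The summed list was at 23.4 to 28.7 CPM in WT, up to 46.8 in gfi1ab-/- and 43.0 to 47.8 with gfi1b lost.

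All 12 circadian clock genes lay above 0, with a median log2 fold change of 0.40, and 1 rose. This was nr1d2a, for a nuclear receptor of the Rev-erb type that represses clock genes, at 2.15 and 1.09 CPM in WT, 1.34 and 2.02 in gfi1ab-/-, 3.87 and 3.17 in gfi1b-/- and 4.34 and 3.33 in gfi1b/1ab DM. Every library with gfi1b lost was above the others. The log2 fold change of 1.14 (CI 0.68 to 1.6, adjusted p = 0.00829) held without each library and without WT (adjusted p = 0.0347). In gfi1b/1ab DM against gfi1ab-/- nr1d2a did not pass the test (adjusted p = 0.166). At an unadjusted p under 0.05, 7 of the 12 were higher and 0 lower, beside 1923 and 1858 of all 19903 tested genes. Clock genes follow the time of day, and the hour of collection is not given in the sources used here.

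Elsewhere single genes changed. The slow muscle myosin gene smyhc1 fell from 666 to 829 CPM to between 593 and 641, a log2 fold change of -0.27 (CI -0.38 to -0.15, adjusted p = 0.0124), and was the 1 changed gene of 17 in the sarcomere list. Its call was lost without gfi1b-/- replicate 1, gfi1b/1ab DM replicate 1 or WT replicate 1, and without both WT libraries (adjusted p = 0.355). The kidney regulator hnf1bb, at 18.7 to 22.7 CPM with gfi1b intact and 25.1 to 28.6 with it lost, rose by 0.38 on the log2 scale (CI 0.25 to 0.52, adjusted p = 0.00343). It lies on chromosome 21, 303 tested genes after gfi1b, and was not called without WT (adjusted p = 0.0736). The chaperone gene hsp90b1 fell by 0.44 on the log2 scale (CI -0.65 to -0.23) and lost its call without 5 of the 8 libraries and without WT (adjusted p = 0.334). Genes of the yolk syncytial layer and of plasma proteins had a median of -0.36, with 0 of 14 changed and a lowest adjusted p of 0.0534. Of the 14, 9 were lower at an unadjusted p under 0.05, as were 1858 of all 19903 tested genes. Of the p53 pathway 0 of 12 genes changed, with 1 higher and 2 lower at an unadjusted p under 0.05.

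Finally the change with gfi1aa intact was set against the change with gfi1aa lost. In gfi1aa mutants, compared over 8 other libraries, 536 of the 876 genes had the same sign (61.2%, against 54.1% of all tested genes), 187 were called in the same direction and 51 in the opposite direction. The test of the difference (gfi1aa by gfi1b interaction) called 800 genes (4.02%), 288 of them among the 876. Leaving out a library gave 347 to 1766 genes for this test, lowest without gfi1b-/- replicate 2 and highest without gfi1 TM replicate 1.

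Of the 12 largest increases, galk2, znf1104 and zbtb12.1 differed by this test. With gfi1aa lost, galk2 was at 1.51 to 8.36 CPM with gfi1b intact and 2.10 to 7.22 with it lost, a log2 fold change of -0.08 (SE 0.21), and the interaction was -2.15 (adjusted p = 0.000814). This mean joins opposite values, since galk2 was lower in gfi1aa/1b DM (2.13 and 2.10 CPM) than in gfi1aa-/- (8.13 and 8.36), but higher in gfi1 TM (5.24 and 7.22) than in gfi1aa/1ab DM (1.51 and 2.02). Of the 12 largest decreases, gsk3bb, cmtm8a, mcm6l and pde6a differed, and gsk3bb had a log2 fold change of -0.03 (SE 0.21) in gfi1aa mutants with an interaction of 1.72 (adjusted p = 0.00426). With gfi1aa lost, gsk3bb was at 1.40 to 2.21 CPM with gfi1b intact and 1.31 to 2.33 with it lost. Only the WT libraries, which enter this interaction, were high. The methyltransferase gene smyd2b, lower with gfi1b lost when gfi1aa was intact, was higher in gfi1aa mutants, at 23.2 to 26.2 CPM against 16.6 to 20.1 (log2 fold change 0.42, SE 0.09, interaction 1.2, adjusted p = 0.000219).

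Other genes moved alike in both settings. With gfi1aa lost, myo7ab, on chromosome 21, was at 5.41 to 14.1 CPM with gfi1b intact and 0.945 to 1.16 with it lost. This is a log2 fold change of -3.02 (SE 0.21), and the interaction of -0.82 did not pass the test (adjusted p = 0.175). The log2 fold changes in gfi1aa mutants were 2.84 (SE 0.32) for itga2.3, 2.08 (SE 0.29) for grik1b and 1.90 (SE 0.23) for otofa, each called there, with interaction adjusted p of 0.464, 0.844 and 0.901. The clock gene nr1d2a, at -0.18 (SE 0.23) in gfi1aa mutants, differed (adjusted p = 0.0338), and the median of the clock list there was 0.03.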

How the data were processed

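RNA of whole embryos, extracted with TRIzol and made into NEBNext Ultra libraries, was mapped by the authors with STAR to GRCz11, and the authors deposited whole-number counts per gene without normalization. Reads fell on both strands about equally, so overlapping and antisense genes cannot be told apart. A table of the series repeats the counts, and 2 of its columns were not used. The 4 lines of unassigned reads per library were left out (77.3% to 80.4% of reads lay on genes over the 16 libraries). The labels do not say that replicates are separate clutches, so p-values measure only the spread between these libraries.

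Counts were tested with edgeR (4.0.16) in R (4.3.3): TMM factors (0.956 to 1.03), filterByExpr (19903 of 28451 genes with counts), glmQLFit and glmQLFTest with 1 mean per genotype over all 16 libraries (8 residual degrees of freedom), and Benjamini-Hochberg adjustment over all tested genes. CIs are at 95%. A fold against libraries of 3 counts or fewer is a bound against 3 counts. Before use, the fit was tried on simulated counts with known changes, and it recovered most of those with a log2 fold change of 1. Apart from these changes the simulated genotypes shared the same means. The trial therefore does not cover a shift of a whole genotype such as that of WT. Alternatives were other scaling (RLE), no filter, DESeq2 (1.42.0), limma-voom (3.58.1), fewer libraries, a replicate block, a stricter fold and left-out libraries. Leaving out both WT libraries and crossing the replicate numbers were added after seeing the data.

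Named were the 12 genes with the largest change in each direction (adjusted p under 0.05, groups not overlapping, at least 1 CPM on a side, no clone name, from 355 genes of which 273 have a symbol), changed list members, the targeted genes and 13 erythroid and endothelial genes of the study. The comparison, lists and members were chosen with earlier results of these data known. Promoter motifs were not analysed here. Gene order comes from the RefSeq table of GRCz12tu, an assembly other than that of the counts, and no coordinates are given.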

Additional observations from a re-analysis of the deposited data

Results flagged for a closer look

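In 188 groups of 4 libraries of the genes looked at singly, 10 held a library far from the other 3. This is close to the 5% of groups that chance gives among like replicates. Each group joins different genotypes, so that share is only a guide. With gfi1b intact, cmtm8a was at 1.63 CPM in gfi1ab-/- replicate 1, flt4 at 16.5 CPM and CR847785.1 at 1.87 CPM in the same library. WT replicate 1 stood apart for C5H9orf16 (18.3 CPM), unc5da (0.2 CPM) and si:ch211-173m16.2 (1.5 CPM). With gfi1b lost, sox7 was at 15.9 CPM in gfi1b/1ab DM replicate 2, and gfi1b-/- replicate 2 stood apart for si:dkey-172m14.1 (15.5 CPM), vps33a (21.7 CPM) and smyd2b (25.7 CPM).

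The change with gfi1b lost differed between the WT and gfi1ab-/- backgrounds, by the interaction in edgeR's quasi-likelihood test, for 7 of these genes. Since WT stood apart from every other genotype, a different effect of gfi1b loss cannot be told apart from a difference of the WT libraries. The difference was -7.19 on the log2 scale for col28a1a, -5.12 for slc13a5b, -3.18 for zgc:152891, -2.12 for otofa, -1.59 for si:ch73-112l6.1, 0.98 for RIMBP2 and 2.34 for gsk3bb. The adjusted p ranged from 0.000341 for si:ch73-112l6.1 to 0.0495 for col28a1a.

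The change with gfi1b lost also differed between embryos with gfi1aa intact, WT among them, and gfi1aa mutants for 12 of these genes. The interaction was negative for zbtb12.1 (-1.68), galk2 (-2.15), znf1104 (-2.31), nr1d2a (-1.32), zgc:152891 (-2.08) and apba2a (-0.97). It was positive for mcm6l (1.35), cmtm8a (2.41), gsk3bb (1.72), pde6a (1.88), smyd2b (1.2) and smyhc1 (0.38). The adjusted p ranged from 0.000219 for smyd2b to 0.0498 for zbtb12.1.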

How the results depend on the processing

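The count of 876 genes was 1852 with no filter on low counts, 311 when a change of 2-fold or more was also required, 19 with the 2 sides only, 313 without the WT libraries, and 364 to 687 with a library left out. RLE factors, DESeq2 and limma-voom gave 878, 789 and 820 genes, of which 866, 700 and 771 were among the 876. For gfi1b-/- against WT the stricter fold gave 848 genes and left-out libraries 683 to 1024. For gfi1b/1ab DM against gfi1ab-/- no filter gave 339 and left-out libraries 7 to 22, and for the gfi1b by gfi1ab interaction 1254 and 238 to 384. In gfi1aa mutants no filter gave 2787 genes, the stricter fold 481, the libraries of the comparison alone 1157 and left-out libraries 847 to 2581. The gfi1aa by gfi1b interaction gave 1706 with no filter, 335 with the stricter fold and 347 to 1766 with a library left out. Beside the 14% called among the 100 genes on each side of gfi1b, 200 on each side gave 9.75%. The cause of these shifts was not tested.

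Of the 24 genes with the largest changes, all 24 were called under RLE factors, no filter, DESeq2, the libraries of the comparison alone and the replicate block, 21 with limma-voom, 17 to 21 with a library left out, 12 without WT and 3 of 22 with the 2 sides only. No called named gene changed sign; of those not called, sox7, tfr1a, egfl7, epb41b and gfi1b did so in at least 1 alternative. The replicate numbers did not pair the libraries: deviations of same-numbered libraries correlated between -0.158 and 0.087 among the genotypes with gfi1aa intact. With the replicate block 767 genes were called, and 1741, 68, 495, 1671 and 671 in the other comparisons in the order above. Crossing the numbers of gfi1b/1ab DM and gfi1ab-/-, chosen after seeing the data, gave 76 genes. With 2 libraries per genotype and few counts, genes under about 1 CPM are the least certain.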

Other observations

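Heat shock and unfolded protein genes were lower in gfi1b-/- than in WT for 6 of 13 genes, where 4.83% of all tested genes were lower. The median log2 fold change of the list was -0.41, and it was 0.02 in gfi1b/1ab DM against gfi1ab-/- and 0.21 in gfi1aa mutants. Mitochondrially encoded genes were higher in gfi1b-/- than in WT for 3 of 12, where 4.63% of all tested genes were higher, with a median of 0.20, and the median was 0.05 in gfi1b/1ab DM against gfi1ab-/- and -0.14 in gfi1aa mutants. Yolk syncytial layer and plasma protein genes were lower for 3 of 14 in gfi1b-/- against WT, where 4.83% of all tested genes were lower. Their median was -0.56 there, -0.10 in gfi1b/1ab DM against gfi1ab-/- and -0.54 in gfi1aa mutants. Whether these lists differed between the comparisons was not tested.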
